A study of Mus musculus with 5 samples.

Results

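The cells described here are CD8 T cells whose T cell receptor was shared with at least 1 other cell of the same library. They were chosen by 3 kinds of measured value. Barcodes with fewer than 200 genes or with over 15% of molecules from mitochondria were dropped. A cell needed at least 1 unique molecular identifier (UMI) of Cd8a or Cd8b1, at least 1 of Cd3e, Cd3d or Cd3g, none of Cd4, and fewer than 2 of the cell cycle genes Mki67, Top2a and Birc5 together. Its receptor library had to hold a contig of the receptor beta chain (TRB) for it, in a clonotype found in at least 2 barcodes with a TRB contig. The choice found 208 cells among the 9835 barcodes of both expression libraries, 204 in the anti-CTLA-4 library and 4 in the control library. Cells that met the same gene criteria in a clonotype of 1 barcode, called single-clonotype cells here, served as the reference and numbered 304 and 46. A further 140 and 7 CD8 T cells had no TRB contig and were not used.

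The samples came from BALB/c mice, 6 weeks old, in which CT26 cells, a colon carcinoma line of that strain, had grown under the skin. One group received 100 µg of an antibody against CTLA-4, clone 9H10, into the peritoneum on days 5, 8 and 11, and the control group received phosphate-buffered saline (PBS). Mice were sacrificed on day 13, and the material, which the labels call only tissue, was taken apart with a kit for tumours and run with the 5' immune profiling chemistry, version 1.1, aiming at 5000 cells. Each treatment had 1 expression library and 1 T cell receptor library, and how many mice were pooled is not given in the sources used here. With 1 library per treatment there is no replicate check, cells of 1 library are not replicates of a treatment, no p-value was computed, and the 95% intervals cover counting error only.

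A T cell clonotype is a set of cells that carry the same rearranged receptor and so, in general, descend from 1 T cell. CD8 T cells recognise peptides on class I major histocompatibility molecules, and on recognition they divide and can acquire granzymes, perforin and interferon gamma, with which they kill or signal to target cells. CTLA-4 is an inhibitory receptor that competes with CD28 for its ligands during T cell priming. In tumours, CD8 T cells that meet antigen for long periods are known to carry inhibitory receptors such as PD-1, while naive cells keep the homing receptor CCR7 and the transcription factor TCF-1.

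The receptors of the largest clonotypes are shown first, because the results are given by clonotype. The third complementarity determining region (CDR3) is the stretch where the V, D and J segments join, and it was read from the deposited contigs, 5' to 3'. Most CDR3s of the same V gene share a start, and most of the same J gene share an end. Capitals mark the bases outside both stretches, and different clonotypes can carry the same capitals. Clonotype 1, with 24 cells, used TRBV13-1 and TRAV13-2, and its beta and alpha CDR3 were as follows.
Clonotype 1 TRB: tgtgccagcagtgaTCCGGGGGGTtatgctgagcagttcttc
Clonotype 1 TRA: tgtgctCCCTccgacaaagtcgtcttt
The next 3 clonotypes had 15, 10 and 10 cells and used TRBV13-1, TRBV2 and TRBV10.
Clonotype 2 TRB: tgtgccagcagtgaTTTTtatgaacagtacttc
Clonotype 3 TRB: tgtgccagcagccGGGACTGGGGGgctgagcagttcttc
Clonotype 5 TRB: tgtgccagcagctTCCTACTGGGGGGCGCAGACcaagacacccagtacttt
Clonotype 16, with 7 cells, is shown because it carried most of the granzyme D described below, and it used TRBV1.
Clonotype 16 TRB: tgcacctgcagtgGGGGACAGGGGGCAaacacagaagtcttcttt

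A second set of sequences is shown because several expanded clonotypes, and cells of both libraries, had near-identical beta chains. From clonotype 4, 7 others of the same CDR3 length differed by at most 2 amino acids. They were grouped after their sequences had been seen. All used TRBJ2-1 and had a beta CDR3 of 45 bases. Capitals mark the 12 positions at which the 8 sequences differ from each other. The first 5 were expanded in the anti-CTLA-4 library and held 25 of its 204 cells.
Clonotype 4, TRBV10: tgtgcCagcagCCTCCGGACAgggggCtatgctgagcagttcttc
Clonotype 12, TRBV19: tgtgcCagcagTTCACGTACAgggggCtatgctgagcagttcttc
Clonotype 21, TRBV19: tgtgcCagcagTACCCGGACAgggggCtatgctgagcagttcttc
Clonotype 28, TRBV10: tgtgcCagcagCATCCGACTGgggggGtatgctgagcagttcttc
Clonotype 111, TRBV19: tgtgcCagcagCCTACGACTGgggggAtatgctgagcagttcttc
The other three came from the control library, where clonotype 6 was expanded and clonotypes 4 and 179 were single cells.
Control clonotype 6, TRBV10: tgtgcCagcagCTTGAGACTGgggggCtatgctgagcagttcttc
Control clonotype 4, TRBV19: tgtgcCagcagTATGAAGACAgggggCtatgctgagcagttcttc
Control clonotype 179, TRBV29: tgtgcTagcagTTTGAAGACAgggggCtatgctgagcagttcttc
Clonotypes 12 and 21 each differed from clonotype 4 by 1 residue, through 5 and 3 base differences. Control clonotype 6 also differed from clonotype 4 by 1 residue, through 7 base differences, although the cells came from mice of another treatment. Its beta CDR3 had the same residues as that of clonotype 111, with 4 bases different and another V gene. The alpha chains were alike in 5 of the 8. Clonotypes 4, 12 and 21 and control clonotype 4 had the same alpha CDR3 base for base, from TRAV3-3 and TRAJ13, and that of control clonotype 6 was 1 residue away. Clonotype 12 also carried another alpha chain, from TRAV6N-7 and TRAJ30. The remaining alpha chains were unlike. Clonotype 28 and control clonotype 179 also used TRAV3-3 but lay 7 and 5 residues away, and clonotype 111 used TRAV9-4. The alpha CDR3 of clonotype 4 is shown with capitals as for clonotype 1, outside the shared V start and J end.
Clonotype 4 TRA: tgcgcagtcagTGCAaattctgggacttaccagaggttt

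Such pairs were more frequent among expanded clonotypes than among single ones, mainly through the set above. Of the 820 pairs of expanded clonotypes in the anti-CTLA-4 library, 11 had beta CDR3s of equal length with at most 2 residues different, or 13.4 per 1000 pairs, and 10 of the 11 lay within the set above. Among 46056 pairs of single-clonotype cells there were 45 such pairs, or 0.977 per 1000. Between the 3 expanded control clonotypes and the 41 of the anti-CTLA-4 library there were 8 in 123 pairs, or 65.0 per 1000, against 12 in 1886 pairs, or 6.36 per 1000, for single-clonotype control cells. Most of the 8 involved control clonotype 6, which belongs to the same set. Pairs that share a clonotype are not independent, and no test was made. In addition, 5 single-clonotype cells of that library had the exact TRB bases of 4 expanded clonotypes, numbered 9, 38, 60 and 89, so the deposited clonotypes had kept them apart.

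The 204 cells of the anti-CTLA-4 library fell into 41 clonotypes. Clonotype 1 alone held 11.8% of them, and the 5 largest held 68 cells, or 33.3%. The median clonotype had 4 such cells, 18 clonotypes had at least 5 and together held 148, 12 had 2, and 3 had only 1 because the other cells of those clonotypes did not meet the gene criteria. In all, 238 cells belonged to these 41 clonotypes, and 9 of them, in 4 clonotypes, had a Cd4 UMI. Clonotype 7 was the only one with more cells that had Cd4 and no Cd8 UMI, 6, than the reverse, 1.

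**Figure D1:**
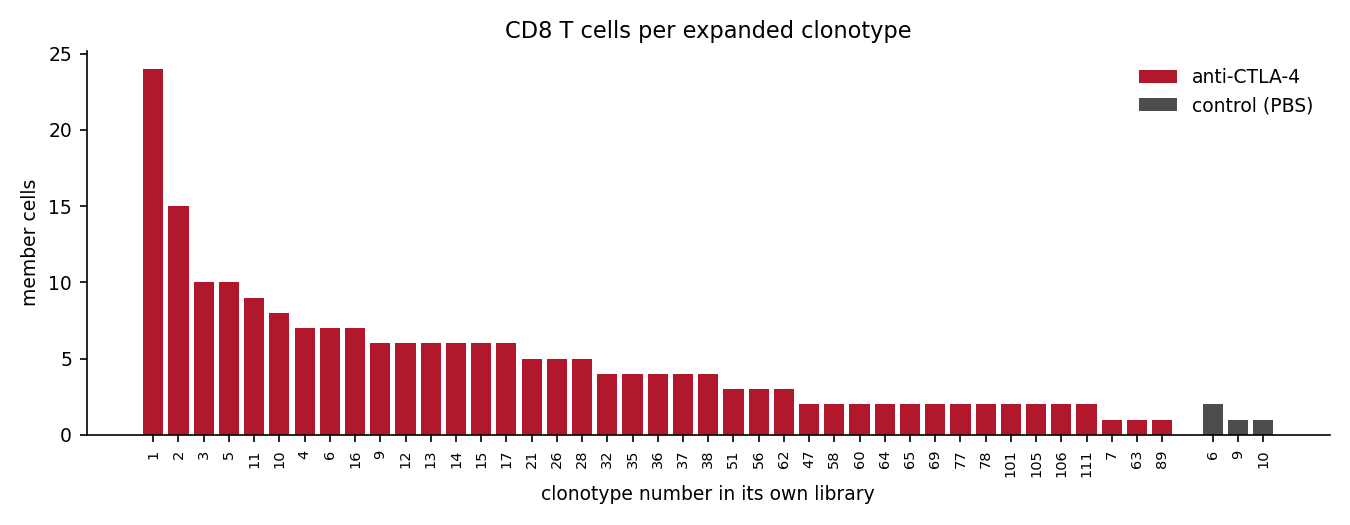
Number of CD8 T cells (vertical axis) in each expanded clonotype (horizontal axis, numbered within its own library), in red for the anti-CTLA-4 and in grey for the control library. Clonotype 1 reaches 24 cells, clonotype 2 reaches 15, and no control clonotype has more than 2.

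Expanded clonotypes took up 204 of 508 CD8 T cells with a TRB contig in the anti-CTLA-4 library, or 40.2% (Clopper-Pearson 95% interval 35.9 to 44.6). In the control library they took up 4 of 50, or 8% (2.22 to 19.2). The number of cells sampled sets how many clonotypes can be seen more than 1 time, and the receptor libraries held 1529 and 282 cells with a TRB contig. At 282 cells the anti-CTLA-4 library was expected to show 27.4%, a value calculated from its clonotype sizes. It remained above the control share. The treatments, their libraries and their cell numbers cannot be told apart, and when an expanded clonotype had to hold 3 barcodes the control share was 0 of 46, which allows up to 7.71%.

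Receptor gene use was compared over clonotypes, so that each counted 1 time. TRAV21-DV12 was used by 6 of the 38 expanded clonotypes with an alpha contig in a member cell, or 15.8% (6.02 to 31.3), and by 4 of 189 single-clonotype cells, or 2.12% (0.58 to 5.33). Through clonotypes 2, 3 and 6 among others it reached 44 of 164 expanded cells, or 26.8%. Of 121 V and J segments compared it was the only one whose intervals did not overlap. TRBV10 was used by 6 of 41 expanded clonotypes, or 14.6%, against 15 of 304, or 4.93%. CDR3 length did not separate the groups, with a median of 42 bases in both, a range of 33 to 51 in the expanded clonotypes and of 27 to 57 in the single ones.

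The choice itself required CD8 and CD3 genes, so their detection, Cd8b1 in 96.1% of the 204 cells, Cd3e in 97.5% and Cd8a in 83.8%, is a description and not a check of the label. Markers of other cell types were summed by list. The NK list stood at 5.47 UMIs per 10000 in expanded and 3.22 in single-clonotype cells, of which Gzma gave 462 of 514 UMIs in the expanded cells. Klre1, another NK receptor gene of that list, had 18 UMIs against 2, and Ncr1, Klrb1c, Klra8, Klra4 and Klra7 had none in the expanded cells. Markers assigned to macrophages summed to 10.1 against 3.19, of which Cst3 and Ly6c2 gave 902 of 948 UMIs in the expanded cells, while Csf1r and Adgre1 had none and Lyz2 was lower, at 0.181 against 0.940. The CD4 helper list stood at 11.9 against 2.99, and Icos and Ctla4, which activated CD8 T cells also express, gave most of it. The rarer members, Cd40lg and Zbtb7b, which encode CD40 ligand and a factor of CD4 lineage choice, had 33 UMIs against 6 and 16 against 1, whereas Il4 and Il17a had none and Foxp3 had 1 in the expanded cells. Tumour and stroma markers were lower in the expanded cells, at 0.862 against 4.21, and in single-clonotype cells they reached 295 per 10000 in 1 cell, with 185 UMIs of Col1a1, a collagen gene, against 7. B cell and plasma cell markers were at 1.53 and 1.23, and a B cell receptor contig was found for 7 expanded cells, 3.43%, and 10 single-clonotype cells, 3.29%. The part of NK, CD4, macrophage and stromal RNA in the results was not tested. Leaving out every cell with a B cell receptor contig changed no named gene beyond its interval.

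Over all barcodes the control library was deeper, with a median of 6827 UMIs over 5649 barcodes against 3147.5 over 4186. Its CD8 T cells were shallower than those of the anti-CTLA-4 library given below. Their medians were 3773.5 UMIs in expanded and 2925 in single-clonotype cells. Among the barcodes, 20 occurred in both expression libraries, 1 of them a member, and no barcode had a TRB contig in both receptor libraries. Within the anti-CTLA-4 library the depth of the compared groups was close. The median was 4251.5 UMIs in expanded and 4344 in single-clonotype cells, with a range of 999 to 26484 and of 1050 to 25486, and the summed totals were 939557 and 1478382 UMIs. Expanded cells had more detected genes, a median of 1631 against 1427. An alpha chain was found in 80.4% of them and in 62.2% of the single-clonotype cells, with a median of 9 against 6 UMIs for the beta contig. Near the limits of the choice, 14 members had exactly 1 Cd8 UMI, 20 were in clonotypes of 2 barcodes and 15 in clonotypes of 3. Exactly 1 Cd8 UMI was found in 58 of the single-clonotype cells, 19.1% against 6.86% of the members. Just outside the limits, 73 T cells in expanded clonotypes of that library had no UMI of Cd8 or Cd4, and 2 cells had exactly 2 UMIs of the cell cycle genes and were left out.

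Levels are given as UMIs per 10000 UMIs of the group, and a ratio as the level in expanded over that in single-clonotype cells of the anti-CTLA-4 library, with its 95% interval. A gene counts as past the fold at 1.5 times or more in either direction. Of 5026 genes with at least 50 UMIs, 26.3% were past the fold in the higher direction (1324 genes) and 10.9% in the lower one (550 genes). The named lists use genes with at least 20 UMIs, of which 7420 were measured, 26.7% were past the fold higher and 13.8% lower. Their median log2 ratio was 0.20, so an expanded cell's typical gene lay slightly above the reference before any list is considered. The lists were chosen with results of these data known, and genes outside the rule stated under processing were chosen after their values were seen.

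**Figure D2:**
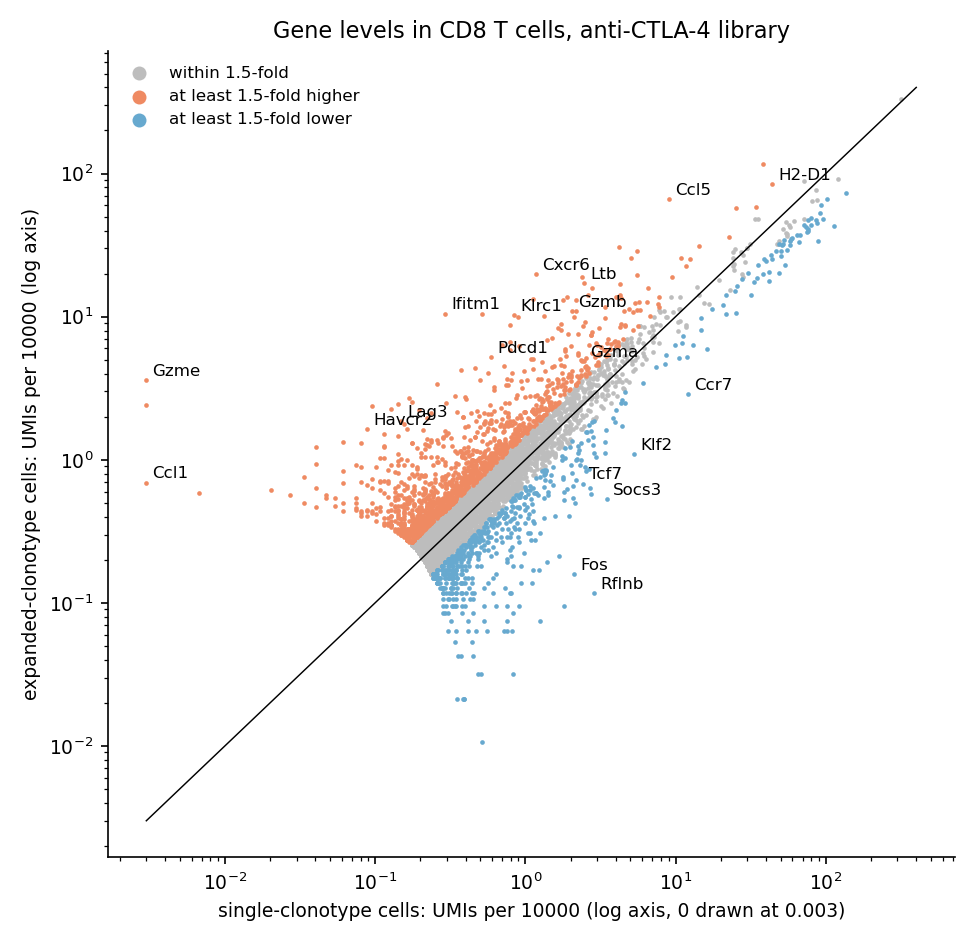
Level of each of 5026 genes in single-clonotype cells (horizontal axis) and expanded-clonotype cells (vertical axis) of the anti-CTLA-4 library, in UMIs per 10000 on log axes, with the line of equal levels. Cxcr6, Ifitm1, Ccl5, Klrc1 and Havcr2 lie far above the line, Rflnb, Fos and Socs3 far below it, and genes listed at 0 in the single cells, such as Gzme, sit on the left edge.

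The chemokine receptor gene Cxcr6 (GRCm38 chr9:123806475-123811760, plus strand) was among the 10 highest ratios by the naming rule. It was detected in 88.7% of expanded and 12.5% of single-clonotype cells. The receptor binds CXCL16 and is known from T cells that reside in tissue. Over single cells its level had a lowest value of 0, a median of 15.1 and a highest of 76.3 in the expanded group, against 0, 0 and 49.0 in the reference, so the groups overlapped. The summed levels were 19.8 and 1.18, a ratio of 16.7 (14.3 to 19.6). After each cell was thinned to 1000 UMIs the shares were 72.4% and 6.91%. In B cells the share was 0.149% and in myeloid cells 1.25%, as a rough gauge of free RNA. Those cells were required to have no UMI of Cd3e, Cd3d or Cd3g, which can lower their shares of T cell genes.

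Cytotoxic genes were higher as a group. Of 17 measured members of the list, 15 were past the fold higher and none lower, with a median log2 ratio of 2.40. Lamp1 and Gzmm, at ratios of 1.04 and 1.43, were within the fold. Gzmb, which encodes granzyme B (chr14:56258838-56262260, minus strand), was detected in 62.7% of expanded and 9.54% of single-clonotype cells. Its levels over cells ran from 0 through a median of 3.15 to 114, and from 0 through 0 to 241 in the reference, whose highest cell exceeded every expanded cell. The summed level was 11.0 against 2.05, a ratio of 5.36 (4.71 to 6.11). Gzmk, the gene for granzyme K, a protease common in memory-type CD8 cells, was at 2.52 against 0.176, a ratio of 14.3 (9.55 to 22.4). Gzma, the granzyme A gene, differed less, at 4.92 against 2.44, a ratio of 2.01 (1.75 to 2.32). Prf1, which encodes the pore-forming protein perforin, was at 0.947 against 0.541, with a ratio of 1.75 (1.28 to 2.4), or 1.46 when each clonotype had equal weight, which is within the fold. Nkg7, a granule membrane protein gene, was found in 82.8% of expanded and 35.5% of single-clonotype cells, with a ratio of 7.29 (6.4 to 8.33).

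The granzyme genes next to Gzmb on chromosome 14 were found in few cells. Gzmd had 227 UMIs in the expanded cells and none in the reference, which makes it at least 119-fold higher against a fixed floor of 3 counts over the reference group. Gzme had 339 and none, at least 178-fold higher by the same floor. The exact intervals used for the other ratios reach lower, to 96.0 for Gzmd and 144 for Gzme. Only 4.9% of expanded cells had a Gzmd UMI and 7.84% a Gzme UMI. Gzmc and Gzmf had ratios of 6.06 (3.67 to 10.5) and 5.84 (4 to 8.75), with Gzmc at 3.80 when clonotypes had equal weight. These genes are close copies of each other, and how reads that match several of them were counted is not given in the sources used here, so the split between them is uncertain.

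Among cytokines and chemokines, 9 of 11 measured genes were past the fold higher and none lower, with a median log2 ratio of 2.89. Ccl5 (chr11:83525778-83530518, minus strand), a chemokine that attracts T cells and monocytes, was the most abundant of them. Its levels over cells were 0 at the lowest, 39.1 at the median and 480 at the highest, against 0, 0 and 638. The sums were 66.6 and 8.98, a ratio of 7.42 (6.99 to 7.87), and thinned shares were 71.4% and 13.2% with 1.93% in unthinned B cells and 20.2% in unthinned myeloid cells. Ifng, the gene for interferon gamma, was at 1.11 against 0.203, a ratio of 5.45 (3.6 to 8.48), or 3.26 with clonotypes weighted equally. Tnf, which encodes a death-inducing cytokine, had 43 UMIs against 4, a ratio of 16.9 (6.15 to 64.9). Csf1 and Ltb, growth factor and lymphotoxin beta genes, had ratios of 13.2 (9.42 to 19.0) and 6.98 (6.23 to 7.85). Ccl3 and Xcl1 were within the fold, at 0.749 (0.315 to 1.66) and 1.26 (0.704 to 2.23). Il2 had no UMI in either group.

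All 10 measured inhibitory receptor genes were past the fold higher, with a median log2 ratio of 2.53. Pdcd1, which encodes PD-1 (chr1:94038305-94052553, minus strand), was detected in 56.9% and 5.59% of cells. Over cells its level was 0 at the lowest, 2.57 at the median and 49.2 at the highest, against 0, 0 and 51.7, so the ranges overlapped while most reference cells had none. The summed levels were 5.20 and 0.595, a ratio of 8.74 (6.96 to 11.1). Lag3, a receptor for class II molecules, and Havcr2, the TIM-3 gene, had ratios of 12.5 (8.01 to 20.5) and 18.6 (10.6 to 35.8), with Lag3 at 7.70 after thinning. Havcr2 was detected in 35.3% of expanded, 2.63% of single-clonotype and 26.7% of myeloid cells. Tigit and Ctla4, receptors that compete with costimulatory partners, differed less, at 3.08 (2.59 to 3.67) and 2.23 (1.78 to 2.80). Ctla4, the target of the antibody, was detected in 43.6% of expanded and 17.8% of single-clonotype cells.

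Genes tied to late dysfunction did not move as 1 block. Of 16 measured, 7 were past the fold higher and 2 lower, with a median log2 ratio of 0.38, near the 0.20 of all genes. Tox, which encodes a regulator of the exhausted state, had 3 UMIs in expanded and 30 in single-clonotype cells, a ratio of 0.157 (0.0307 to 0.506). With clonotypes weighted equally the Tox ratio was 0.309. Eomes, a T-box factor gene, was at 0.482 (0.272 to 0.817), but this was within the fold at 0.858 with equal weights and at 0.998 after thinning. Tox2 had no UMI in either group. Id2, which encodes an inhibitor of E proteins that effector cells express, was at 10.1 against 1.33, a ratio of 7.6 (6.52 to 8.91). The orphan receptor genes Nr4a1, Nr4a2 and Nr4a3, induced by receptor signals, were within the fold at 0.932, 1.34 and 0.916. Among cytolytic and memory transcription factors, 10 of 19 were past the fold higher and 3 lower. Tbx21 and Zeb2, factors of effector differentiation, had ratios of 6.59 (3.78 to 12.2) and 16.1 (8.91 to 32.1), with Zeb2 at 7.11 after thinning. Zeb2 was detected in 32.4% of expanded cells and in 61.8% of myeloid cells, and Id2 in 82.4% and 68.8%, and the part of free RNA was not tested.

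Naive and stem-like memory genes were lower. Of 21 measured, 18 were past the fold lower and 2 higher, Ly6c1 and Ly6c2, which activated cells also carry, and the median log2 ratio was -1.95. Il7r, the interleukin 7 receptor gene, was within the fold at 1.24 (1.04 to 1.47). Ccr7 (chr11:99144196-99155077, minus strand), the lymph node homing receptor, was at 0 at the lowest, 0 at the median and 33.0 at the highest expanded cell, against 0, 10.2 and 55.3. Its summed level was 2.88 against 12.2, a ratio of 0.237 (0.208 to 0.270), and it was detected in 29.9% against 86.2% of cells. Tcf7, which encodes TCF-1, was at 0.681 against 2.42, a ratio of 0.281 (0.212 to 0.368). Klf2, which drives the egress receptor gene S1pr1, was at 0.208 (0.168 to 0.256). Among the 10 lowest ratios of the naming rule was that of Rflnb, at 0.0409 (0.0203 to 0.0740). With each clonotype weighted equally, which gives the small ones more room, the list's median log2 ratio was -1.07, and the ratios were 0.475 for Tcf7 and 0.150 for Rflnb.

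Adhesion and residency genes were higher in 13 of 18 cases and lower in 1, with a median log2 ratio of 1.69. Ccr2, a chemokine receptor gene of inflammatory homing, was at 4.36 against 0.460, a ratio of 9.49 (7.32 to 12.5). Cd44, a marker of antigen experience, had a ratio of 3.69 (2.84 to 4.82), and Itgal, the LFA-1 alpha chain gene, 3.96 (3.04 to 5.21). Among genes used to name resident cells the values were mixed. Itga1, which encodes CD49a, had 26 UMIs against 1, a ratio of 40.9 (6.72 to 1677). Rgs1, a regulator of G protein signals, was at 4.67 (4.05 to 5.41). Cd69 was the member past the fold lower, at 0.651 (0.494 to 0.850), and Itgae, which encodes CD103, had 5 UMIs against 13.

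NK-type receptor genes split. Of 10 measured, 7 were past the fold higher and 3 lower, with a median log2 ratio of 2.13. Klrc1, which encodes NKG2A (chr6:129666015-129678973, minus strand), was found in 86.8% of expanded and 12.5% of single-clonotype cells. Its levels over cells were 0, 9.20 and 46.8 at the lowest, median and highest, against 0, 0 and 70.8. The summed levels were 10.3 and 0.846, a ratio of 12.2 (10.1 to 14.8), or 7.85 after thinning. Its partner Klrd1, the CD94 gene, had a ratio of 4.54 (3.80 to 5.45). Tyrobp and Fcer1g, adaptor genes of NK and myeloid cells, and Cd7 were the 3 lower members, at 0.472, 0.280 and 0.455. Klrc1 and Klrc2 are close copies, with the same limit as for the granzymes.

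Costimulatory and survival receptor genes were higher in 11 of 18 cases and lower in 3. Tnfrsf9, which encodes 4-1BB, was at 6.29 against 0.703, a ratio of 8.94 (7.25 to 11.1), and Il18rap, a chain of the interleukin 18 receptor, at 17.6 (11.0 to 29.7). The lower 3 were Cd27, Tnfrsf14 and Il21r, at 0.616, 0.376 and 0.352. Receptor signalling and early response genes divided into 7 higher and 10 lower of 24, with a median log2 ratio of -0.15. Over all genes with at least 20 UMIs, 26.7% were higher and 13.8% lower, so the higher part was near the share of all genes. Cish, a cytokine-induced inhibitor gene, was at 10.9 (6.54 to 19.4), whereas Fos and Socs3 were at 0.0759 (0.0420 to 0.127) and 0.152 (0.111 to 0.204), with Fos at 0.170 after thinning. Fos, Junb, Socs3 and several others of this list also belong to the list for dissociation stress, in which 6 of 24 were higher and 9 lower. The part of dissociation in their values was not tested.

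Glycolysis and hypoxia genes were higher in 17 of 18 cases, with a median log2 ratio of 1.35. Aldoa, the aldolase A gene, was at 16.9 against 4.30, a ratio of 3.93 (3.58 to 4.31), with a median of 13.8 over expanded and 2.74 over single-clonotype cells. Eno1 and Tpi1, which encode other enzymes of the pathway, were at 4.92 (4.20 to 5.78) and 4.88 (3.93 to 6.09). Mif, at 1.46, was the member within the fold. Antigen presentation genes were higher in 8 of 14 cases and lower in none. H2-D1 had a median of 85.9 over expanded and 42.8 over single-clonotype cells, and summed levels of 84.0 and 43.8, a ratio of 1.92 (1.86 to 1.98).

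Interferon-induced genes were mostly near the level of all genes, with 5 of 23 past the fold higher, 2 lower and a median log2 ratio of 0.10. The Ifitm genes on chromosome 7, which encode membrane proteins that restrict virus entry and which no list held, stood apart. Ifitm1 and Ifitm2 were among the 10 highest ratios by the naming rule, and Ifitm3 was added after its value was seen. Ifitm1 (chr7:140967221-140969825, plus strand) was at 10.5 against 0.291, a ratio of 36.1 (26.6 to 50.2), although 34.3% of expanded cells had a UMI and 2.63% of the reference. Ifitm2 and Ifitm3 were at 20.4 (16.1 to 26.1) and 4.93 (4.01 to 6.10), and after thinning at 38.4 and 9.86. Of the myeloid cells 19.5%, 79.3% and 83.3% had a UMI of Ifitm1, Ifitm2 and Ifitm3, and the part of free RNA in these values was not tested. Ifi27l2a, another interferon-induced gene, was lower at 0.485 (0.442 to 0.532). The remaining genes named for the highest ratios included Itgb3, the integrin beta 3 gene, at 21.9 (11.1 to 48.9), Capg, which encodes an actin-capping protein, at 17.3 (11.1 to 28.5), and Spp1, the osteopontin gene, at 30.4 (13.6 to 84.6), or 14.2 after thinning. Spp1 was detected in 22.9% and Capg in 73.8% of myeloid cells.

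**Figure D3:**
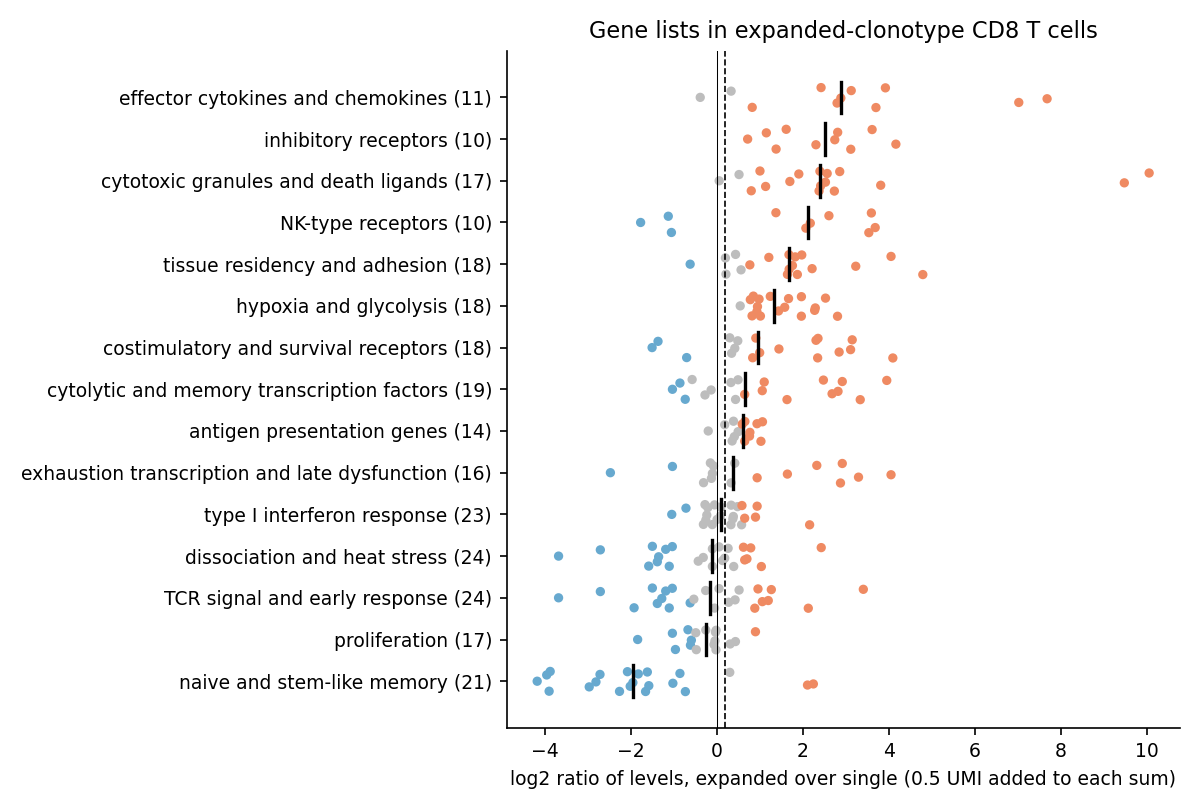
Log2 ratio of levels, expanded over single-clonotype cells with 0.5 UMI added to each sum (horizontal axis), for each measured gene (point) of 15 lists (rows, with the number of genes), orange past the fold higher and blue past it lower. Black bars are list medians and the dashed line is the median of all genes, 0.20, from which cytokines at 2.89 lie farthest above and naive genes at -1.95 farthest below.

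Cells with at least 2 UMIs of Mki67, Top2a and Birc5 were not members, so cycling was counted before that limit was applied. Of the CD8 T cells in expanded clonotypes 19 of 223, or 8.52% (5.21 to 13.0), were cycling by this count, and of single-clonotype cells 6 of 310, or 1.94%. The 19 cells came from 12 of the 41 clonotypes. Thinned to 1000 UMIs, the shares were 7 of 222, or 3.15% (1.28 to 6.39), and 2 of 310, or 0.645% (0.0782 to 2.31). The thinned intervals overlapped. Among the members, which exclude these cells, 1 of 17 measured proliferation genes was past the fold higher, Hmgb2 at 1.87 (1.66 to 2.11), and 6 were lower.

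The gene pattern differed by how large a clonotype was. Cxcr6 was detected in 12.5% of single-clonotype cells, in 30% (11.9 to 54.3) of 20 cells in clonotypes of 2, and in 88.6% (73.3 to 96.8) of 35 cells in clonotypes of 3 or 4. In clonotypes of 5 to 9 and of 10 or more it was found in 96.1% and 97.3% of 76 and 73 cells. The intervals of clonotypes of 2 and of 3 or 4 cells did not overlap, while those of the 3 larger sizes did. These intervals treat cells as independent, although the cells of the 3 larger sizes came from 11, 12 and 7 clonotypes. They are too narrow where cells of a clonotype are alike, and differences between sizes were not tested. Klrc1 followed with 12.5%, 40%, 91.4%, 97.4% and 86.3% over the same 5 sizes. Pdcd1 was detected in 5.59%, 15%, 48.6%, 69.7% and 58.9%. Ccr7 ran in the other direction, with 86.2%, 70%, 22.9%, 22.4% and 30.1%.

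The 20 cells in clonotypes of 2 came from 11 clonotypes. In 7 of these no member had a Cxcr6 UMI, in 3 every member did and 1 was mixed, and in 6 every member had a Ccr7 UMI. Of the 30 clonotypes of 3 or more cells, every member had Cxcr6 in 24, no member in 1, and 5 were mixed. An alpha chain was found in 45% of members in clonotypes of 2 and in 84.2% in larger ones, and the median depth was 3334 UMIs in the former. Whether clonotypes of 2 include unlike cells joined by an incomplete receptor was not tested.

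**Figure D4:**
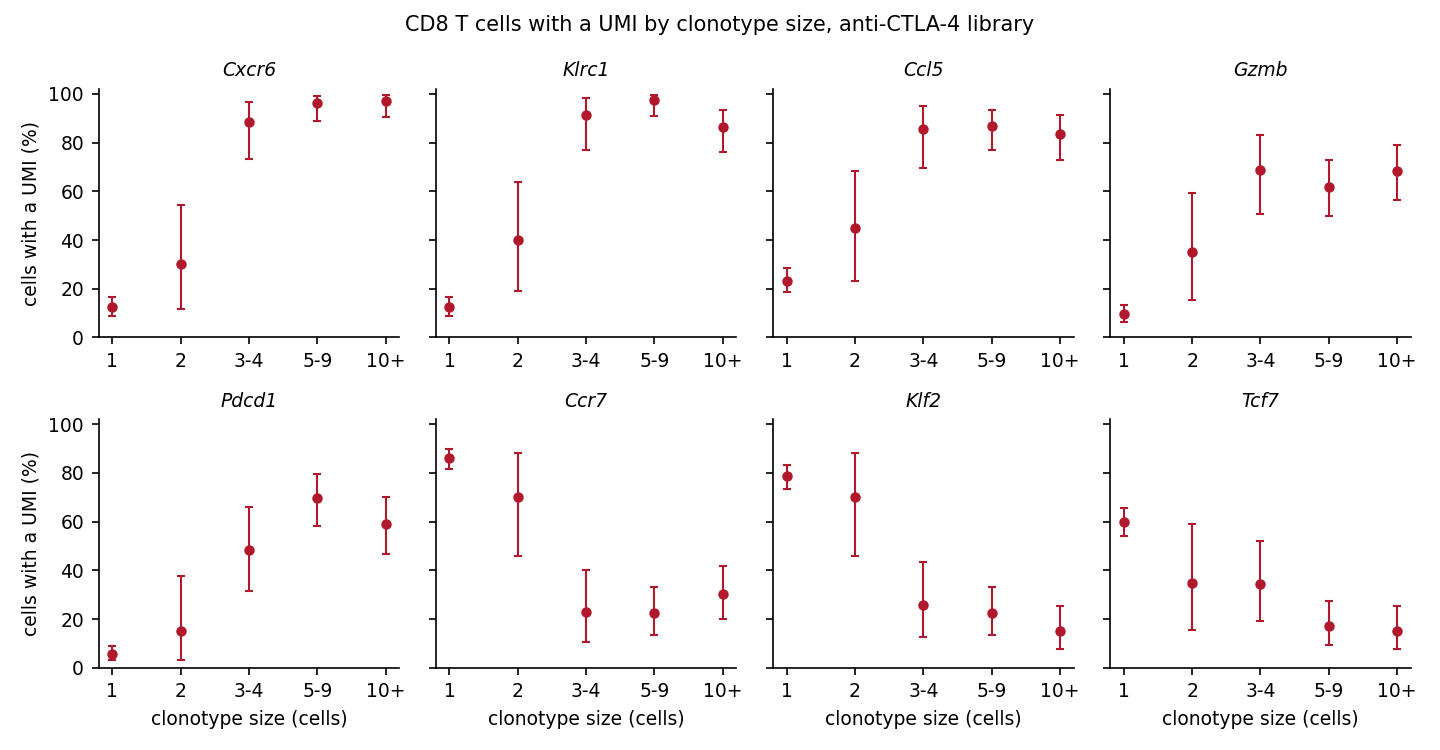
Share of CD8 T cells with a UMI (vertical axis, %) of 8 genes by the number of cells in their clonotype (horizontal axis), in the anti-CTLA-4 library. Bars are 95% Clopper-Pearson intervals, which treat cells as independent. Cxcr6 goes from 30% at size 2 to 88.6% at 3 to 4, and Ccr7 from 70% to 22.9%.

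Among the 18 clonotypes with at least 5 members, some genes were above the single-clonotype level in every clonotype and others were the property of a few clonotypes. Cxcr6 ranged from 8.72 UMIs per 10000 in clonotype 28 (5.08 to 14.0) through a median of 23.2 to 32.9 in clonotype 13 (27.1 to 39.5), and all 18 lay above the single-clonotype level of 1.18. Klrc1 ranged from 6.94 to 22.1, Ccl5 from 21.3 in clonotype 3 to 120 in clonotype 4, and Pdcd1 from 1.31 in clonotype 2 to 12.9 in clonotype 26. All 18 were above the reference for each of these genes. Ccr7 and Tcf7 were above the reference in none of the 18. Clonotype 13 kept the highest Ccr7 level, 9.15 (6.26 to 12.9), together with the highest Cxcr6.

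The granzymes divided the clonotypes. Gzmb was highest in clonotype 13, at 25.2 (20.2 to 31.0), and lowest in clonotype 26, at 1.07 (0.130 to 3.88), and the other 17 were above its reference of 2.05. Gzma was above its reference in only 7, with 21.6 (16.9 to 27.1) in clonotype 6, where 2 of 7 cells held the UMIs, and 19.997 (15.6 to 25.2) in clonotype 10, where 7 of 8 cells did. It was 0 in clonotypes 11 and 14. Clonotype 10 also had the highest Gzmk, 11.3 (8.05 to 15.3), in all 8 of its cells. Gzmd was found in 10 cells of 6 clonotypes, and clonotype 16 held 195 of its 227 UMIs, or 85.9%, all in 2 cells of which the larger had 113. Gzme was found in 16 cells of 8 clonotypes, at 53.9 per 10000 in clonotype 16 and 28.8 in clonotype 14. Ccl1, a chemokine gene with no UMI in the reference, came from 4 cells of 2 clonotypes, with 80% of UMIs in clonotype 3.

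Other genes peaked elsewhere. Ifitm1 was highest in clonotype 26, at 69.3 (57.9 to 82.4) in all 5 of its cells, and 0 in clonotype 4. Lag3 was highest in clonotype 14, at 9.12 (5.90 to 13.5), which also had Gzme. Ccl4, a chemokine gene, was highest in clonotype 28, at 19.999, with all 39 UMIs in 1 of 5 cells. The clonotypes of the near-identical beta chains were not alike in these genes: clonotype 4 had the highest Ccl5 and no Ifitm1, clonotype 21 the highest Klrc1, and clonotype 28 the lowest Cxcr6. Clonotypes were small, so a level can rest on 1 or 2 cells, and these cells share 1 library.

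**Figure D5:**
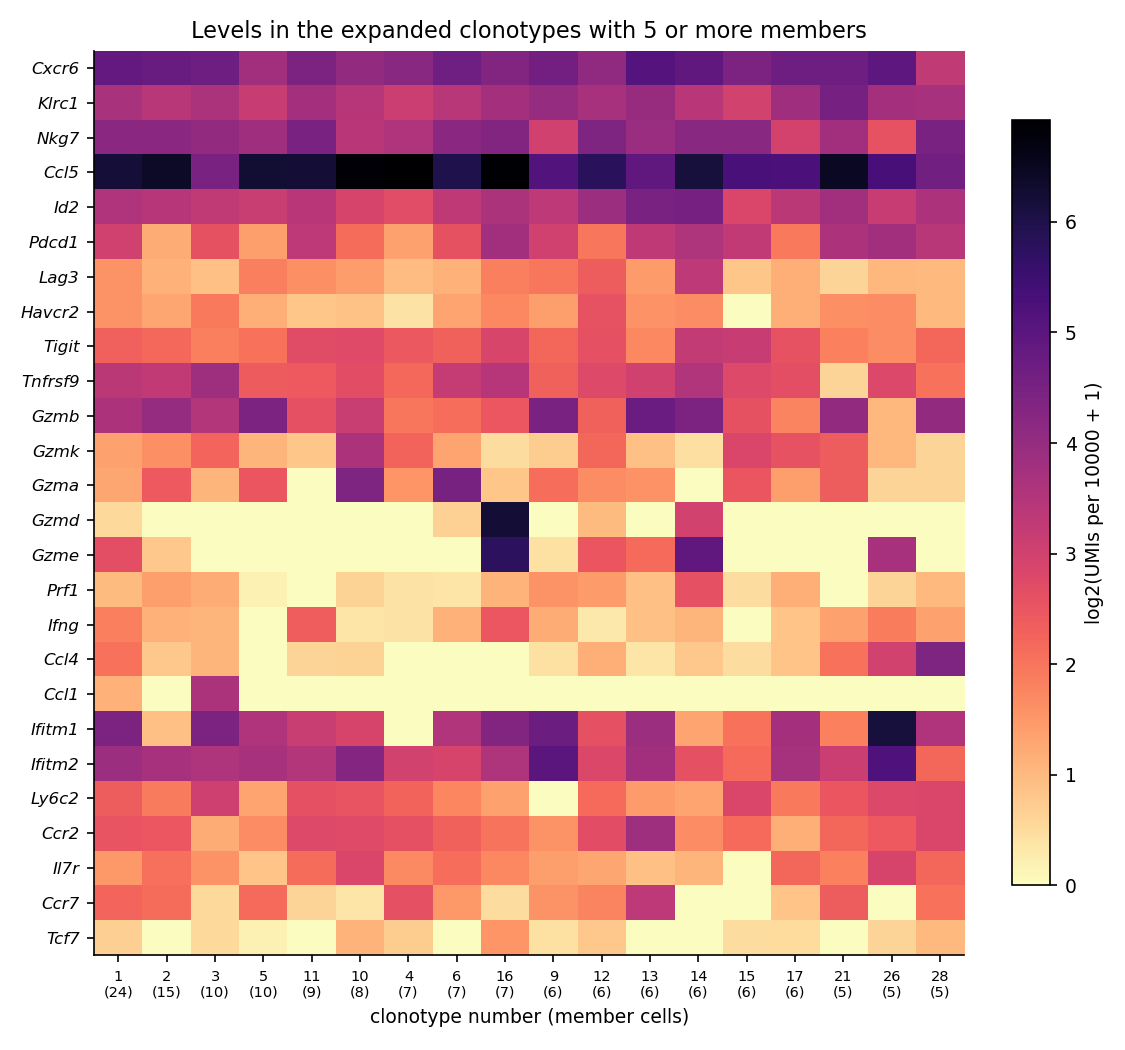
Level of 26 genes (rows) in the 18 expanded clonotypes with 5 or more members (columns, with member cells in brackets) of the anti-CTLA-4 library, coloured by log2(UMIs per 10000 + 1). Cxcr6, Klrc1 and Ccl5 are dark in every column, Gzmd and Gzme mainly in clonotypes 16 and 14, and Tcf7 is pale in most.

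Because 38 single-clonotype cells had a Cxcr6 UMI, both groups were also compared among such cells, 181 expanded and 38 single, a choice made after the values were seen. Their median depth was 4307 and 4826 UMIs. Many ratios were closer to 1. Gzmb at 1.17 (1.01 to 1.36) and Ctla4 at 1.09 were within the fold, and Gzma changed side, at 0.644 (0.538 to 0.773). Ccl5 at 1.77 and Pdcd1 at 1.82 remained past the fold. So did Havcr2 at 3.21, Lag3 at 3.6, Klrc1 at 3.07, Id2 at 4.25 and Ifitm1 at 9.05. Cxcr6 itself, required in both groups, was at 2.84 (2.43 to 3.33). Ccr7 and Tcf7 were at 0.279 and 0.389, whereas Satb1, another gene of the naive list, was within the fold at 0.859 (0.697 to 1.07), and the median log2 ratio of that list was -0.91. Among these cells the fold was passed higher by 693 and lower by 227 of 2928 genes.

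The control library held only 4 such cells, with 14168 UMIs in all, so they are given cell by cell. The first cell of control clonotype 6, with 4613 UMIs, had 1 UMI of Cxcr6, 3 of Lag3, 9 of Nkg7, 11 of the chemokine gene Xcl1 and 12 of Ccr7. The other cell of clonotype 6, with 3936 UMIs, had 4 of Pdcd1, 2 of Lag3, 7 of Xcl1 and 20 of Ccr7. These 2 cells share the receptor that lies 1 residue from clonotype 4 of the other library. The cell of control clonotype 9, with 2008 UMIs, had 8 of Pdcd1, 11 of Gzmd, 12 of Gzme and 6 of Ccr7. The cell of clonotype 10, with 3611 UMIs, had 5 of Pdcd1, 3 of Ccl5 and 18 of Ccr7. All 4 had Ccr7 and none had Gzmb. The CD8 label of the cells of clonotypes 9 and 10 rested on 1 Cd8b1 UMI each, with no Cd8a. That of clonotype 10 also had no Cd3e UMI. The CD4 helper list of the 4 cells stood at 18.4 UMIs per 10000, of which Tnfrsf4 gave 16 of 26 UMIs. In single-clonotype control cells that list stood at 7.64. The macrophage list stood at 16.2 in the 4 cells, with 21 of 23 UMIs from Cst3, and at 15.5 in single-clonotype control cells. The tumour and stroma list stood at 6.35 and 5.74. Crabp1, a gene of that list, was found in 2 of the 4 cells, with 2 UMIs in the cell of clonotype 9. The identity of the 4 cells and the part of free RNA in their values were not tested.

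Summed over the 4 cells, Ccr7 stood at 39.5 per 10000 against 16.2 in the 46 single-clonotype control cells, a ratio of 2.44 (1.80 to 3.27), where the anti-CTLA-4 library had 0.237. Pdcd1 was at 12 against 4.77, a ratio of 2.52, on the same side as in the anti-CTLA-4 library. Cxcr6 was at 0.706 in the expanded and 2.38 in the single-clonotype control cells, while the other library had 19.8 and 1.18. A single-clonotype control cell, clonotype 66, had the same beta and alpha CDR3 bases as clonotype 14 of the anti-CTLA-4 library, and showed 1 UMI of Cxcr6, 5 of Nkg7 and 1 of Ccr7 among 1953. The difference between treatments in these genes was not tested and cannot be told apart from the libraries.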

How the data were processed

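Droplet libraries of gene expression and T cell receptors for each treatment, and of B cell receptors for anti-CTLA-4, were analysed. The authors deposited UMI counts per gene and barcode, and UMI counts per receptor contig with V and J genes and clonotypes, per the file headers. Cell Ranger 5.0.0 and the builds mm10 and GRCm38 are named in the submitters' processing notes. Gene positions were taken from GENCODE M21, build GRCm38. Rows with 1 symbol were summed.

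The members and lists were chosen with earlier results of these data known. UMIs were summed over the cells of a group and divided by its total. Ratios have exact conditional binomial 95% intervals, levels exact Poisson ones and shares Clopper-Pearson ones (scipy 1.17.1, pandas 2.3.3). The ratio intervals were tested only on simulated independent counts, the model they assume, so the clustering of UMIs within cells or clonotypes was not covered. Named genes are, among those with at least 50 UMIs and a UMI in 10% of the cells of the higher group, the 10 highest and 10 lowest ratios, ordered by the bound nearest to 1, the 2 farthest and the 2 most abundant of each list, and, with no minimum, 20 genes of the field, leaving out mitochondrial, ribosomal protein, receptor segment and unnamed genes; the text prints a part. Thinning left 203 expanded and 304 single-clonotype cells. B cells (672) and myeloid cells (401) served as a rough gauge of free RNA. Both were chosen by at least 3 UMIs of their markers and no UMI of Cd3e, Cd3d or Cd3g. That choice can remove cells with free T cell RNA, so their shares of T cell genes may be too low. No doublet caller was run. Ratios over all genes for the 4 control cells were not computed. Alternatives are given in the closing section.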

Additional observations from a re-analysis of the deposited data

Results flagged for a closer look

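In data outside the main measurement, the B cell receptor library of the anti-CTLA-4 treatment, contigs were found for 3.43% of the expanded CD8 T cells, and for 3.29% of the single-clonotype ones. A control B cell receptor library was not analysed here.

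For 4 of the genes computed in both libraries, leaving out those of the selection, the ratio of expanded over single-clonotype cells and its whole 95% interval lay on opposite sides of 1 in the control and the anti-CTLA-4 library. It was 6.93 and 0.157 for Tox, 2.44 and 0.237 for Ccr7, 0.267 and 7.42 for Ccl5, and 0 (no UMI in the expanded cells) and 5.36 for Gzmb. Other genes, among them Cxcr6 at 0.296 and 16.7 and Tcf7 at 2.57 and 0.281, had ratios on opposite sides with a control interval that included 1. For Pdcd1, Tigit, Klrc1, Gzmd and Gzme the whole control interval lay on the same side of 1 as that of the anti-CTLA-4 library. In the same order of libraries, the ratios were 2.52 and 8.74 for Pdcd1, 2.89 and 3.08 for Tigit, and 2.52 and 12.2 for Klrc1. The control ratio of Gzmd was 127, and Gzme had control UMIs in expanded cells only. In the expanded control cells, the UMIs of Gzmd and Gzme came from clonotype 9 alone. The control values rest on 4 cells, the difference between the libraries was not tested, and the Tox value rests on 3 UMIs, with an interval of 1.08 to 35.6.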

How the results depend on the processing

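Of 217 main values under other settings, 13 moved beyond their margins. Of 822 values of single genes 81 moved, and none past the fold crossed 1. Gene counts were compared as counts, so a change in the number of genes tested can by itself count as a move. The main counts were 1324 higher and 550 lower of 5026 genes. Requiring 3 barcodes gave a control share of 0% and a naive median of -2.37. Thinning to 1000 UMIs gave 399 higher and 178 lower of 1256 genes. Its medians were 0.75 for costimulatory and 0.15 for receptor signalling genes, the latter from -0.15 before thinning. The thinned cycling shares were 3.15% and 0.645%, with intervals that overlapped. Weighting clonotypes equally gave medians of 2.60 for cytokines, -1.07 for naive and 1.11 for glycolysis genes. A minimum of 100 UMIs gave 780 higher and 302 lower of 2932 genes. Among cells with a Cxcr6 UMI, added after seeing the data, 693 genes were higher and 227 lower. Medians were 0.71 for cytotoxic, 1.52 for cytokine, 0.96 for inhibitory, 0.52 for costimulatory and -0.91 for naive genes. They were 0.65 for residency, 0.81 for NK-type, 0.35 for transcription factor, 0.73 for glycolysis and -1.23 for proliferation genes. Gzma changed side among those cells, at 0.644. Gzmf was at 0.999 with an interval that included 1, so it lay on neither side. Xcl1, within the fold at 1.26 in the main comparison, was past the fold lower at 0.365 (0.157 to 0.878). Without cells with a B cell receptor contig, also added, the cytokine median was 3.29. The cause was not tested. The planned ratios over all genes for control members were not run, since 14168 UMIs leave too few genes. No paired analysis was possible because each treatment has 1 library.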
